A study of Mus musculus with 6 samples.

Results

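The DNAJ cochaperone genes encode J-domain proteins, and they were taken as every gene of the deposited table whose symbol starts with Dnaja, Dnajb or Dnajc followed by a digit. That rule found 45 genes of 25361, and 34 of them had enough counts to be tested. The hearts came from 12-week-old male C57BL/6N mice of wild-type genotype, 3 untreated controls and 3 given ISO+L-NAME, with tissue taken after 6 weeks. L-NAME inhibits nitric oxide synthase, the series title calls the combination a model of HFpEF, and the labels give neither doses nor route. The RNA is from whole heart tissue, sequenced at the 3′ ends of its messages, which means a count does not grow with message length and levels of different genes can be set side by side. Levels are given as CPM, counts scaled to a common library size after TMM adjustment, and a difference is the log2 ratio of treated to control with its standard error (SE).

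J-domain proteins bring client proteins to HSP70 chaperones and stimulate HSP70 to hydrolyse ATP through a conserved histidine-proline-aspartate motif. Class A members carry the J domain, a glycine-rich stretch and a zinc-binding region, class B members lack the zinc-binding region, and class C members share little beyond the J domain. The members divide their work by place: some serve HSP70 in the cytosol, others serve BiP in the endoplasmic reticulum (ER) or mortalin in mitochondria. In heart muscle the family is known for protein quality control at the Z-disc and for protein import into mitochondria.

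The summed level of the family differed between groups by less than the spread of the treated hearts, while 2 members were called, in opposite directions. Summed over all 45 genes, the level was 1213 ± 7.45 CPM in controls and 1219 ± 38.3 CPM in treated hearts (SD, n = 3). Of the 34 tested members, 1 was lower, Dnaja1, and 1 was higher, Dnajb4, at an adjusted p under 0.05 in the edgeR quasi-likelihood fit of all genes. Neither was called with DESeq2, and both calls were lost when some single libraries were left out. Over all 8531 tested genes 6.10% were called, 3.41% higher and 2.68% lower, so the 5.88% of members called is close to the background. The median difference of the tested members was -0.01, as was that of all tested genes, and the interquartile range of the members ran from -0.10 to 0.20 against -0.21 to 0.21 for all genes. Without a composition adjustment, on total counts alone, the median of all genes shifts to 0.30 and that of the members to 0.29. There 5 members were called higher and 0 lower, or 14.7% of the tested members, with 13 at an unadjusted p under 0.05. Over all genes 17.3% were called in that setting, 1407 of 1479 of them higher, so the members' share is not above the background there either. In tissue RNA, a change in the number of cells of a type and a change of RNA per cell cannot be told apart.

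Promoter sequences are shown for 4 members, the 2 that were called, the ER member Dnajc3 and the abundant Dnajb6 for contrast. They come from RefSeq on GRCm38.p6, which is not the GRCm39 build of the count table, and each covers 250 bases before to 50 bases after an annotated start. Capitals mark matches to 3 searched motifs: the heat shock element units GAANNTTC and TTCNNGAA, and the ER stress response element, searched as CCAAT, 9 bases of any kind and CCACG. Bases at N stay in lower case. Dnaja1 has 3 listed starts and Dnajb4 has 2, and the one with a match is printed. Dnajb6 has 2 starts whose windows share the matches, and the first is printed. The windows are chr4:40722218-40722517 (plus strand) for Dnaja1, chr3:152193796-152194095 (minus strand) for Dnajb4, chr14:118937682-118937981 (plus strand) for Dnajc3 and chr5:29735648-29735947 (plus strand) for Dnajb6.
Dnaja1: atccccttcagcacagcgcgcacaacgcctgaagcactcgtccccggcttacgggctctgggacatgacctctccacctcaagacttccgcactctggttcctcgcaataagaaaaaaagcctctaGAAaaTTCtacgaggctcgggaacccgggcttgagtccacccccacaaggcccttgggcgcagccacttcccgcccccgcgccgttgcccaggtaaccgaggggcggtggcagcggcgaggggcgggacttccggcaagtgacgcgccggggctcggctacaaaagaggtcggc
Dnajb4: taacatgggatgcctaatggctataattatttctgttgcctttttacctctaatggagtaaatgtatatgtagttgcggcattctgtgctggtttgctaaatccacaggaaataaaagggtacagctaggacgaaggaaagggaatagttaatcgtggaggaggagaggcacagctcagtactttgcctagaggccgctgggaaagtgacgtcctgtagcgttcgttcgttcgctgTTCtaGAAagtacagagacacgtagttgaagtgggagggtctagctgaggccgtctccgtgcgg
Dnajc3: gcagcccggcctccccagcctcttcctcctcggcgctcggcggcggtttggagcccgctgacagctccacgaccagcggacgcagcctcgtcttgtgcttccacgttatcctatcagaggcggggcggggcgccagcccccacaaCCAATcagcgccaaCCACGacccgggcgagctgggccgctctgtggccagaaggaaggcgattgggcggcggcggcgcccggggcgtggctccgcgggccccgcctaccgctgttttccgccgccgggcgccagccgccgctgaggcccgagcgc
Dnajb6: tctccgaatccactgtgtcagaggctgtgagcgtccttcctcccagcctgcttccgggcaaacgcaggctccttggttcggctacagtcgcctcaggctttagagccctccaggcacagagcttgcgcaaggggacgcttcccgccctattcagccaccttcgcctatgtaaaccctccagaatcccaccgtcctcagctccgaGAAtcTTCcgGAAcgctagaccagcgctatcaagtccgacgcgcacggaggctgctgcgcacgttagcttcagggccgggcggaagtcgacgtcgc

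Both called members had a heat shock element unit near a listed start, at -124 in Dnaja1 and at -14 in Dnajb4. Whether these units bear on the differences was not tested. Positions are the first base of the match, counted from the start. In Dnajb6, which did not differ detectably, the unit at -46 runs into a second at -41, sharing its middle TTC, which makes 3 alternating GAA and TTC blocks. Dnajc3 held the complete ER stress response element at -105. It was the only one of 37 members with a promoter in the table to hold it, and 0.119% of all 32851 promoters of this length do. A heat shock element unit of either kind was found for 7 of the 37 members, or 18.9%, against 17% of all gene symbols with a promoter. Counted by promoter, the share was 16% of the members' 50 against 15.1% of all promoters. The other members with a unit were Dnaja4, with matches at -90 and -52, Dnajc10 at -182, Dnajc27 at -213 and Dnajc5g at 34. Both motifs read the same on either strand, the third was searched on both, and a match is a description of the letters and not of binding.

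The levels of the family in heart spanned from 0 to 172 CPM. Dnaja2 at 172 CPM and Dnajb6 at 141 CPM led by mean level over the 6 libraries and together made up 25.7% of the summed level. They stood at percentiles 94.6 and 93.6 of the mean levels of all tested genes. Dnajc8 followed at 69.1 CPM and Dnajc15 at 55.4 CPM. The order of the next members differed between groups. Dnaja1 stood at rank 6 of the family in controls and rank 17 in treated hearts, and Dnajb4 at rank 8 and rank 4. Dnajc10, which was not called, stood at rank 29 and rank 22. In controls the members at rank 22 and rank 29 were at 17.5 and 13.3 CPM, so ranks there shift with small differences. At rank 1, 2 and 3 stood Dnaja2, Dnajb6 and Dnajc8 in both groups. The order among Dnajb4, Dnajc3 and Dnajc19, at 51.2, 50.1 and 46.2 CPM over the 6 libraries, is within their spread.

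**Figure D1:**
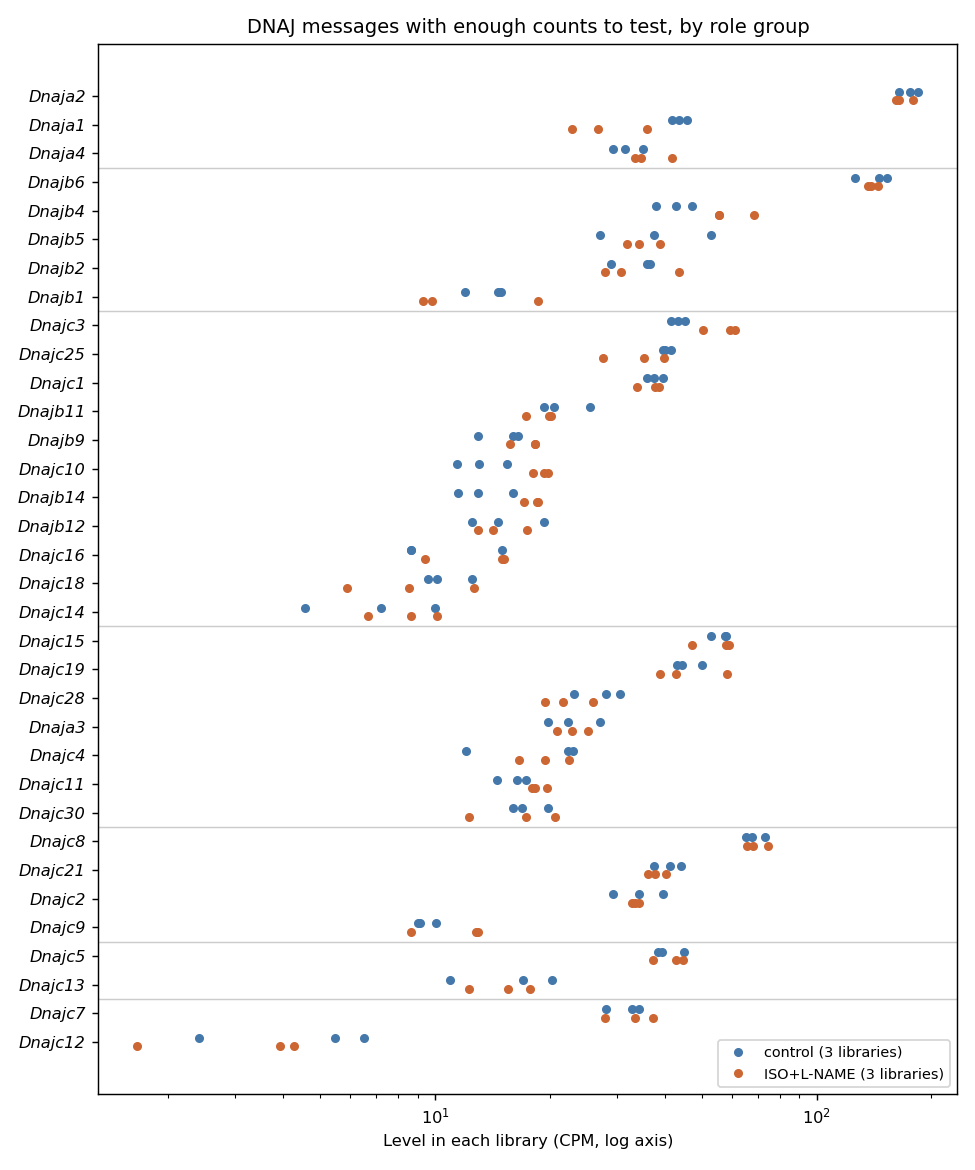
Level of each tested DNAJ message in every library, in CPM on a log axis, with genes grouped by role and ordered by mean level within a group (from top: cytosolic class A, cytosolic and nuclear class B, ER, mitochondrial, ribosome and nucleus, vesicle and endosome, unplaced). Each point is 1 library, 3 control in blue and 3 ISO+L-NAME in orange; the groups separate for Dnaja1, Dnajb4 and 4 others.

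Among the cytosolic class A members, Dnaja1 was lower in treated hearts and the more abundant Dnaja2 was not called. Dnaja1 (ENSMUSG00000028410, GRCm39 chromosome 4, 40722150 to 40737149), a farnesylated partner of cytosolic HSP70, stood at 45.6, 43.5 and 41.9 CPM in controls and at 35.9, 26.7 and 22.9 CPM in treated hearts. The control libraries lay close together and every treated library was below them. The fold was 1.52 lower, at log2 -0.60 ± 0.17 (edgeR adjusted p = 0.0335). Its call was lost without any 1 of controls 1 and 2 and treated hearts 2 and 3 (edgeR adjusted p from 0.0713 to 0.151), with DESeq2 (0.116) and on total counts, where the difference was -0.30 (0.251). The gene overlaps Smu1 on the opposite strand by 608 bases, and since the use of strand in counting is not given, reads there cannot be assigned with certainty. Smu1 itself was not called, with a difference of -0.09 ± 0.21. A gene named Dnaja1-ps in the reference names is a further possible sharer of reads.

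Dnaja2, a refolding cochaperone of HSP70, was at 165, 176 and 185 CPM in controls and 161, 164 and 179 CPM in treated hearts. The groups overlapped, and the 95% interval of the log2 difference, -0.28 to 0.16, does not reach the difference estimated for Dnaja1. Dnaja4 was at 31.5, 35.02 and 29.4 CPM in controls and at 41.9, 33.4 and 34.6 CPM in treated hearts. These values overlap as well (log2 0.20 ± 0.16, edgeR adjusted p = 0.574), although total counts alone called it higher (0.51, edgeR adjusted p = 0.0372).

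In the cytosolic and nuclear class B group, Dnajb4 was the member called higher. Dnajb4 (ENSMUSG00000028035, GRCm39 chromosome 3, 151884148 to 151915939), a relative of the heat-inducible HSP40 that is needed in human skeletal muscle, was at 42.9, 38.0 and 47.2 CPM in controls. In treated hearts it was at 55.5, 55.4 and 68.3 CPM, all above the control range. The fold was 1.40, at log2 0.48 ± 0.14 (edgeR adjusted p = 0.0479), just inside the threshold. Leaving out control 1, control 2 or any treated library ended the call (edgeR adjusted p from 0.0621 to 0.211), as did DESeq2 (0.168), limma-voom (0.0604) and the deposited library sizes (0.0535). On total counts it was called at 0.78 (0.00160). The difference was positive in every one of 16 alternative settings, from 0.37 to 0.78.

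**Figure D2:**
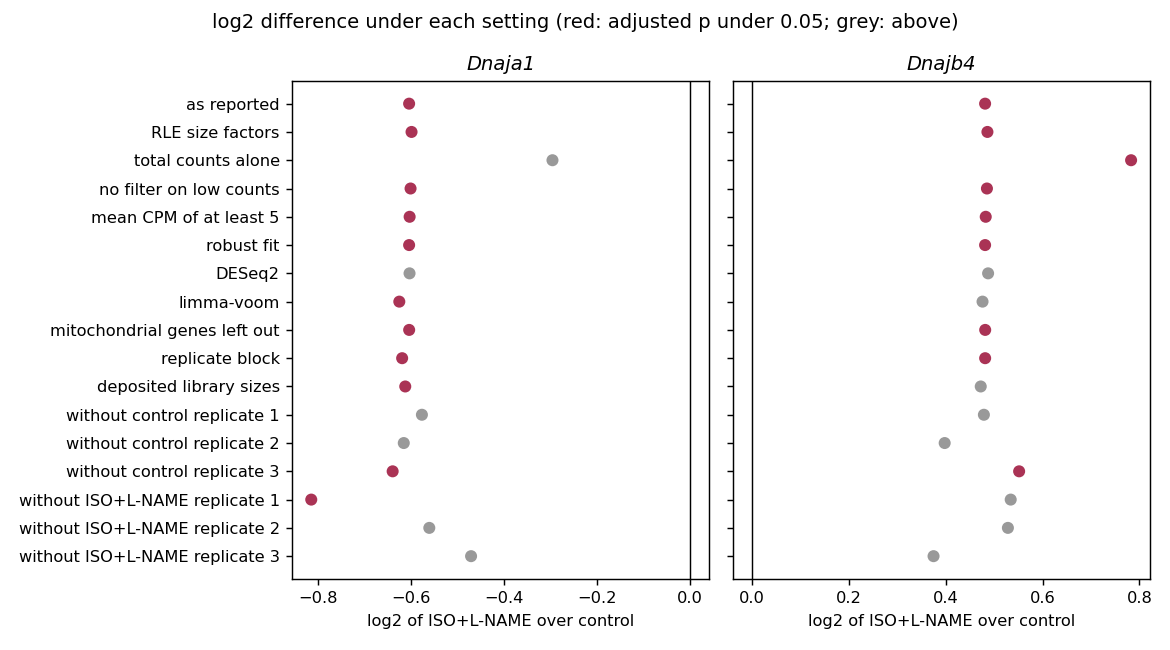
The log2 difference of Dnaja1 (left) and Dnajb4 (right) as reported and under 16 alternative settings, with red points where the adjusted p was under 0.05. All points lie on one side of 0 for each gene, while Dnaja1 was called in 10 and Dnajb4 in 8 of the alternatives.

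Dnajb1, the heat-inducible HSP40 itself, was low in these hearts, at 14.6, 12.0 and 14.9 CPM in controls and 18.6, 9.83 and 9.32 CPM in treated hearts. The treated libraries lay on both sides of the controls (log2 -0.12 ± 0.27, edgeR adjusted p = 0.888). Dnajb5, which in mouse heart takes part in the redox control of a histone deacetylase, was at 52.9, 27.0 and 37.5 CPM in controls and 38.9, 34.2 and 31.8 CPM in treated hearts, all inside the control range. Dnajb6, an inhibitor of protein aggregation whose human gene is mutated in a limb-girdle muscular dystrophy, was at 146, 126 and 153 CPM in controls and 139, 136 and 144 CPM in treated hearts. The treated values fell inside the control range, and the 95% interval ran from -0.25 to 0.22. Dnajb2, a cochaperone with ubiquitin-binding motifs, was at 33.8 ± 4.28 CPM in controls and 34.0 ± 8.33 CPM in treated hearts (SD, n = 3). The remaining members of this group were at or near 0: Dnajb7 and Dnajb8 had 0 counts in all libraries, Dnajb13 had 2 counts in all and Dnajb3 had 5.

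Of the 11 ER members, all tested, none was called by edgeR. An unadjusted p under 0.05 was reached by 2 of them, against 18.1% of all tested genes. Their median difference was 0.20, with 6 positive and 5 negative, and it rested on single libraries: it was -0.02 without control 1, 0.12 without control 3 and 0.10 without treated heart 3. DESeq2 and limma-voom likewise called 0 of them. Groups did not overlap for 3 of them, Dnajc3, Dnajc10 and Dnajb14, each higher. Over the whole family groups did not overlap for 6 of 34 members, 5 higher and 1 lower, against 22.7% of all tested genes, 11.4% higher and 11.3% lower. Total counts alone called these 3 higher (edgeR adjusted p = 0.00298, 0.0132 and 0.0287), with a median of 0.51 for the ER members against 0.30 for all genes. Role groups follow textbook placement, which is less certain in the ER group for Dnajc14, Dnajc16 and Dnajc18.

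Dnajc3, an ER cochaperone of BiP that is also known as an inhibitor of the stress kinase PERK (ENSMUSG00000022136, GRCm39 chromosome 14, 119175388 to 119219109), was at 43.3, 41.5 and 45.2 CPM in controls and 59.1, 50.3 and 61.0 CPM in treated hearts. The lowest treated value lay above the highest control value (log2 0.39 ± 0.14, edgeR adjusted p = 0.103). Dnajc10, an ER disulfide reductase with a J domain, was at 11.4, 13.0 and 15.4 CPM in controls and 19.3, 18.1 and 19.8 CPM in treated hearts. This was the largest positive difference among tested members, 0.52 ± 0.21, without passing the test (edgeR adjusted p = 0.174). Dnajb14, an ER membrane protein, was at 16.0, 11.5 and 13.0 CPM in controls and 18.6, 18.5 and 17.1 CPM in treated hearts (0.42 ± 0.21, edgeR adjusted p = 0.319).

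Other ER members did not share that pattern. Dnajc25 was at 40.1, 41.5 and 39.5 CPM in controls and 27.6, 39.7 and 35.3 CPM in treated hearts, overlapping by a narrow margin (-0.25 ± 0.16). Dnajb11, a soluble partner of BiP, was at 20.5, 25.5 and 19.3 CPM in controls and 19.9, 17.3 and 20.2 CPM in treated hearts (-0.18 ± 0.19). Dnajb9, a repressor of the stress sensor IRE1, was at 16.0, 16.5 and 13.0 CPM in controls and 18.3, 15.7 and 18.2 CPM in treated hearts (0.20 ± 0.21). Dnajc16 was at 8.67, 15.01 and 8.66 CPM in controls and 14.9, 9.44 and 15.1 CPM in treated hearts (0.30 ± 0.27). Each of these 4 had overlapping groups and none was called. The last 4 members of the group, Dnajc1, Dnajb12, Dnajc14 and Dnajc18, differed by -0.04, -0.06, 0.24 and -0.22. Dnajc14 overlaps Sarnp on the same strand by 2114 bases, and its counts are uncertain for that reason.

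**Figure D3:**
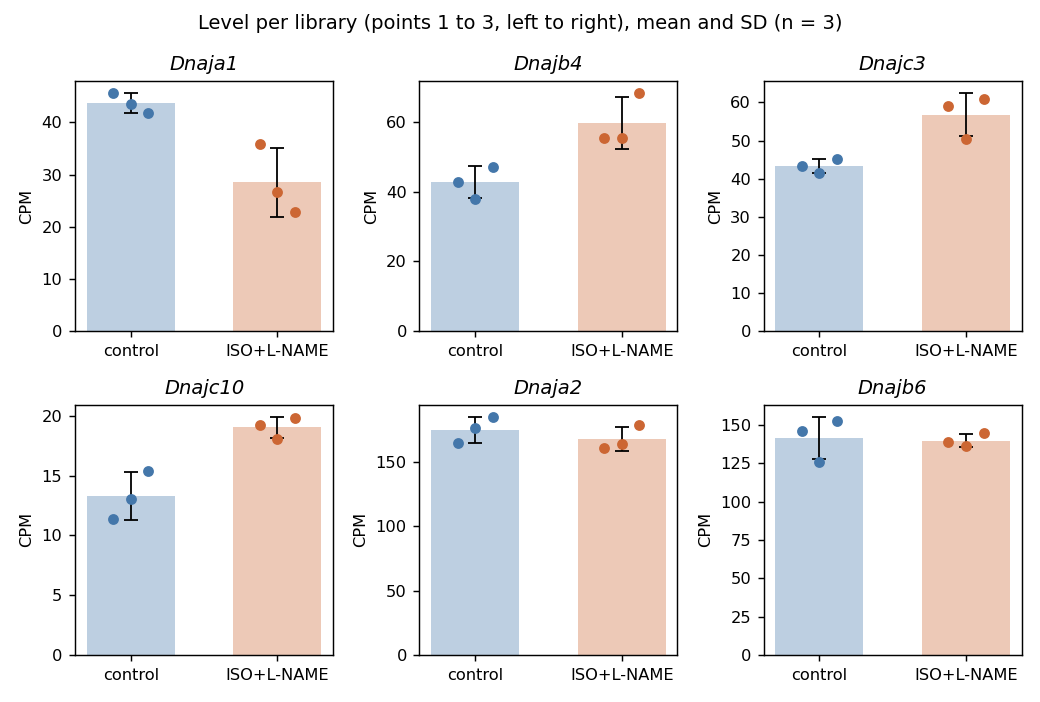
Level in CPM of 6 DNAJ messages, with 1 point per library, bars at the group mean and whiskers of 1 SD (n = 3). Dnaja1 is lower and Dnajb4, Dnajc3 and Dnajc10 are higher in all 3 treated libraries, with only the first 2 past the test, while Dnaja2 and Dnajb6 overlap.

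The 7 mitochondrial members were all tested and 0 were called by edgeR, with 0 at an unadjusted p under 0.05; DESeq2 and limma-voom called 0 as well. Their median difference was -0.00, at the median of all genes. Mitochondrial genome messages themselves took 53.6% to 56.7% of counts in controls and 45.5% to 47.8% in treated hearts. With mitochondrial genome messages left out before scaling, the calls of the family were the same 2 genes. Dnajc19, a component of the import motor of the inner membrane whose human gene is mutated in a dilated cardiomyopathy with ataxia, was at 50.2, 43.0 and 44.3 CPM in controls and 38.9, 42.9 and 58.2 CPM in treated hearts. Treated hearts were more spread than controls, on both sides of them (0.02 ± 0.16, edgeR adjusted p = 0.975). Dnajc19 lies within 14303 shared bases with Fxr1 on the opposite strand, and reads there may be shared.

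Dnajc15, an inner membrane relative of Dnajc19, was the most abundant mitochondrial member, at 57.5, 58.0 and 52.9 CPM in controls and 47.2, 59.0 and 57.9 CPM in treated hearts. Dnaja3, the class A cochaperone of mortalin whose loss in mouse heart causes dilated cardiomyopathy, was at 22.4, 27.0 and 19.7 CPM in controls and 20.9, 22.8 and 25.2 CPM in treated hearts. Its log2 interval of -0.39 to 0.39 excludes changes of 1.5-fold in its counts as deposited. Dnaja3 overlaps Vasn on the same strand by 10814 bases and Coro7 on the opposite strand by 39789 bases, and reads there may be shared. Dnajc28 was at 30.6, 28.0 and 23.1 CPM in controls and 21.6, 25.9 and 19.4 CPM in treated hearts (-0.29 ± 0.19). Dnajc11, a protein associated with cristae organisation, was at 17.3, 14.5 and 16.4 CPM in controls and 17.9, 19.7 and 18.2 CPM in treated hearts, without overlap but at a difference of 0.21 ± 0.20 (edgeR adjusted p = 0.664). Dnajc4 and Dnajc30 differed by 0.02 and -0.08. The mitochondrial placement of Dnajc4 and Dnajc28 is less certain than that of the others.

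None of the 4 tested members that act at the ribosome, in the nucleus or in splicing was called by edgeR, DESeq2 or limma-voom, and 0 had an unadjusted p under 0.05. Dnajc8, a spliceosome protein, was at 73.5, 67.5 and 65.5 CPM in controls and 65.8, 74.7 and 67.9 CPM in treated hearts. Dnajc21, needed for maturation of the large ribosomal subunit, was at 37.4, 44.0 and 41.4 CPM in controls and 36.2, 37.7 and 40.4 CPM in treated hearts. The 95% intervals were -0.24 to 0.27 and -0.40 to 0.20. Dnajc9, a histone chaperone, was at 10.0, 9.01 and 9.14 CPM in controls and 13.0, 8.65 and 12.8 CPM in treated hearts, with 2 treated libraries above the controls and 1 below (0.29 ± 0.26). Dnajc2, the ribosome-bound cochaperone, differed by -0.03 ± 0.16. Dnajc17 and Dnajc24 had 48 and 32 counts over all libraries and were not tested.

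Among vesicle and endosome members, Dnajc5, the cysteine string protein of secretory vesicles, was at 39.2, 45.0 and 38.5 CPM in controls and 37.2, 42.9 and 44.7 CPM in treated hearts. Dnajc13, an endosomal protein, was at 10.9, 17.0 and 20.2 CPM in controls and 12.3, 17.7 and 15.5 CPM in treated hearts. Groups overlapped for both. Dnajc27 had 56 counts and was not tested, Dnajc5b had 2 counts and Dnajc6, the neuronal uncoating factor auxilin, had 1. Dnajc5g and Dnajc22 had 0 counts. For the 4 members at 0 in all libraries, a count of 0 allows up to 0.208 CPM over the 6 libraries pooled (3 counts, counting error only).

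Dnajc7 and Dnajc12 were placed in no compartment. Dnajc7, which binds both HSP70 and HSP90, was at 32.8, 28.0 and 34.2 CPM in controls and 27.9, 37.3 and 33.4 CPM in treated hearts (0.05 ± 0.17). Dnajc12, a cochaperone of aromatic amino acid hydroxylases, was at 5.47, 6.50 and 2.41 CPM in controls and 1.66, 3.93 and 4.27 CPM in treated hearts, and its interval of -1.49 to 0.36 was the widest in the family.

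The precision of the family's measurements differed with level. Of the 34 tested members, 33 had a 95% interval within a 2-fold change either way and 19 within a 1.5-fold change. In simulated data with 8531 genes, the test recovered 22.4% of 67 genes changed 1.5-fold and 64.2% of 67 changed 2-fold. Those genes were drawn from all tested genes and not at the members' levels. The simulation gave 126 calls against 520 in the data, so recovery for the members may differ. The filter for low counts was passed in all 6 libraries by 32 of the 34, and no member passed through 1 group only.

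**Figure D4:**
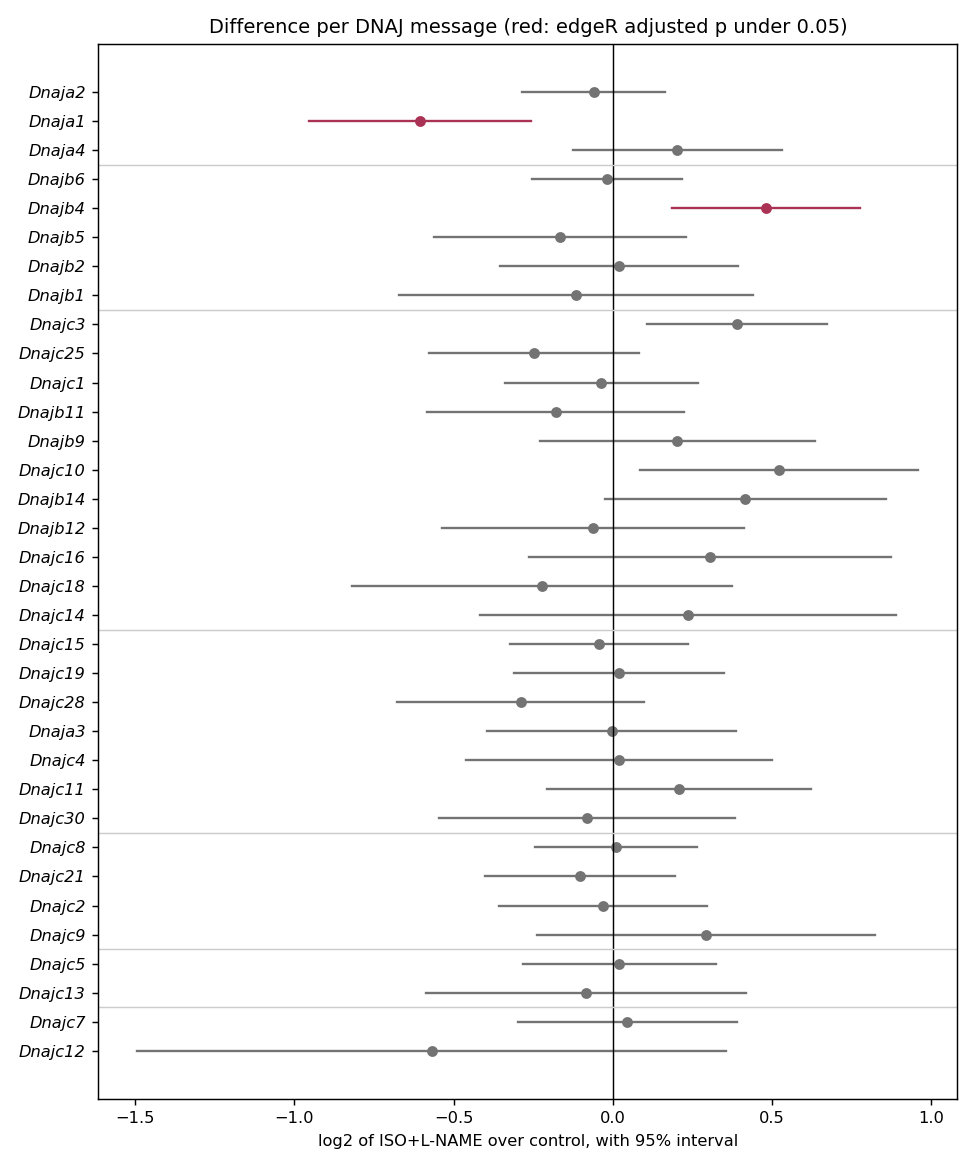
The log2 difference of ISO+L-NAME over control for the 34 tested DNAJ messages, with 95% intervals from the quasi-likelihood SE, in the same order of role groups as the plot of levels. Intervals of Dnaja1 and Dnajb4 (red, edgeR adjusted p under 0.05), Dnajc3 and Dnajc10 do not include 0, and the Dnajc12 interval is the widest.

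The partners of the J-proteins were read from lists of HSP70s, exchange factors, HSP90 and its cochaperones, J-domain genes with other names and heat shock factors. Of 48 listed genes 44 were tested, and edgeR called 3 higher and 4 lower, or 15.9% against 6.10% of all genes. The lists were chosen with earlier results of these data known, so that share is a description. Among those called higher, Hspa1l passed the filter for low counts through treated libraries only, so no weight is put on its call. On total counts 7 were called, 6 higher and 1 lower, and they were partly other genes. There Hspa5, Hsp90ab1 and Hspa12a lost their calls, while Bag1, Bag2 and Hspa8 were called higher. With 17.3% of all genes called on total counts, the partners' share was not above the background in that setting. With DESeq2, 3 genes were called, and without 1 library between 1 and 5. HSP90 and its cochaperones had a median of -0.29, with 8 of 15 lower without overlap (11.3% of all genes were), 2 called lower and 1 higher. On total counts that median was 0.01, so its sign depends on the scaling, while relative to the median of all genes it was -0.28 under both.

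In the ER, the HSP70 gene Hspa5 was called lower and the J-domain gene Sec63 higher, while 0 of the 11 ER DNAJ members were called. Hspa5, which encodes BiP, was at 544, 540 and 579 CPM in controls and 463, 417 and 410 CPM in treated hearts, with every treated library below (-0.37 ± 0.10, edgeR adjusted p = 0.0291). Sec63, the J-domain partner of BiP at the ER translocon, was at 37.4, 32.02 and 27.9 CPM in controls and 47.5, 46.0 and 47.0 CPM in treated hearts (0.53 ± 0.15, edgeR adjusted p = 0.0380). Hspa5 lost its call on total counts (-0.06, edgeR adjusted p = 0.703) and without any 1 of controls 1 and 3 and treated hearts 2 and 3 (0.0597 to 0.136). Sec63 was called there at 0.83 but not with DESeq2 (adjusted p = 0.154), nor without any 1 library other than control 1 (edgeR adjusted p from 0.0853 to 0.143).

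The cytosolic HSP70 that most class A and B members serve did not differ detectably. Hspa8, constitutive HSC70, was at 468, 455 and 476 CPM in controls and 459, 445 and 486 CPM in treated hearts (-0.01 ± 0.10), although total counts called it higher. The inducible Hspa1a and Hspa1b, a near-identical pair whose reads may be shared, were too low to test, at 9, 1 and 5 counts and 1, 2 and 1 counts in controls and at 36, 4 and 8 and 10, 4 and 11 counts in treated hearts. Their neighbour Hspa1l rose from 1, 1 and 6 counts to 18, 10 and 18 counts (2.10 ± 0.54, edgeR adjusted p = 0.0202), or by 3.43 without control 3. Its call was lost with DESeq2 (0.0759) and without any 1 of controls 1 and 2 and treated hearts 1 and 3 (edgeR adjusted p from 0.0645 to 0.140). Hspa1l passed the filter for low counts through treated libraries only, and no weight is put on its test. It was not tested under the filter on mean CPM, with mitochondrial genes left out or with the deposited library sizes. Hspa12a, a distant HSP70 relative, was at 18.2, 11.5 and 13.5 CPM in controls and 9.63, 4.32 and 5.05 CPM in treated hearts (-1.15 ± 0.30, edgeR adjusted p = 0.0228). It was not called on total counts, with DESeq2 or without any 1 of control 1 and treated hearts 2 and 3 (adjusted p from 0.0678 to 0.167).

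Mitochondrial Hspa9, mortalin, differed by -0.09 ± 0.10, Bag3, an exchange factor of the Z-disc, by -0.04 ± 0.13, Hsp90aa1 by 0.13 ± 0.14 and the heat shock factor gene Hsf1 by -0.34 ± 0.25, none of them called. Hsp90ab1, the constitutive cytosolic HSP90, was at 1180, 1101 and 1357 CPM in controls and 993, 885 and 923 CPM in treated hearts (-0.38 ± 0.10, edgeR adjusted p = 0.0289). That call ended on total counts (-0.08) and without any 1 of controls 1 and 3 and treated hearts 2 and 3 (0.0890 to 0.152).

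The immunophilins that compete for HSP90 in steroid receptor complexes moved apart. Fkbp4 was at 250, 247 and 240 CPM in controls and 159, 154 and 132 CPM in treated hearts (-0.73 ± 0.11, edgeR adjusted p = 0.000175), a call kept in each of 16 alternatives. Fkbp5, a glucocorticoid-induced gene, was at 9.12, 16.0 and 21.2 CPM in controls and 18.9, 28.7 and 48.1 CPM in treated hearts, with overlap (1.04 ± 0.30, edgeR adjusted p = 0.0419). It was not called in the robust, DESeq2 and limma-voom fits or without any 1 of controls 1 and 2 and treated hearts 2 and 3 (adjusted p from 0.0770 to 0.395), and it was 0.62 without treated heart 3.

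**Figure D5:**
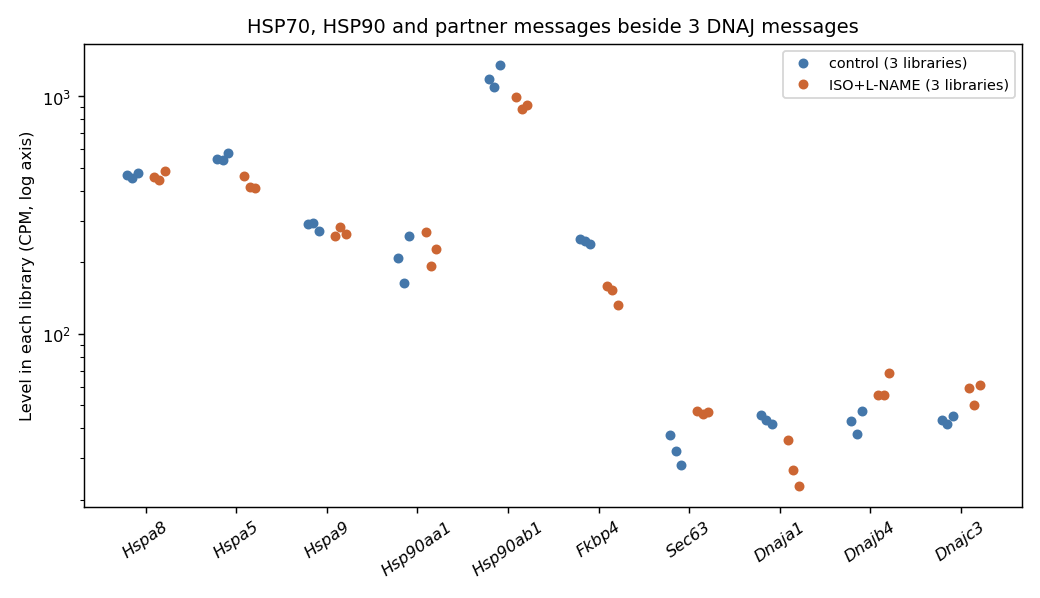
Level in each library, in CPM on a log axis, of 7 chaperone and partner messages beside Dnaja1, Dnajb4 and Dnajc3, with 3 control libraries in blue and 3 ISO+L-NAME libraries in orange. Fkbp4, Hspa5, Hsp90ab1 and Dnaja1 are lower in all treated libraries, Sec63, Dnajb4 and Dnajc3 higher, and Hspa8, Hspa9 and Hsp90aa1 overlap.

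Summed markers of fibroblasts and macrophages were higher in every treated heart, while those of endothelial and smooth muscle cells overlapped between groups. Cardiomyocyte markers summed to between 32752 and 33048 CPM in controls and between 30445 and 32334 CPM in treated hearts, with 2 of 6 higher and 2 lower. Fibroblast markers summed to 403 to 593 CPM and 738 to 1027 CPM, with 3 of 5 tested higher, and macrophage markers to 131 to 167 CPM and 260 to 333 CPM, with 3 of 6 higher. The fibroblast markers called were Col1a1, Col3a1 and Postn. Dcn was not called (0.29 ± 0.12, edgeR adjusted p = 0.211), nor was Pdgfra, whose groups overlapped (0.17 ± 0.25, edgeR adjusted p = 0.798). Tcf21 was not tested. Over all tested genes 3.41% were called higher and 2.68% lower. Among macrophage markers, the called Cd68 and the uncalled Adgre1 passed the filter for low counts through treated libraries only. No weight is put on their tests. Endothelial markers summed to 288 to 361 CPM and 269 to 324 CPM with 0 of 6 called (2 at an unadjusted p under 0.05), and smooth muscle markers to 361 to 496 CPM and 431 to 473 CPM with 1 of 5 higher and 1 lower. In the list for skeletal muscle or other tissue, Myh4 was at 0 counts and Alb had at most 2 in a library. Ckm was at 1235 ± 36.5 CPM in controls and 1032 ± 69.1 CPM in treated hearts (SD, n = 3). Its groups did not overlap, and it was not called (edgeR adjusted p = 0.128). Acta1 was at 144, 161 and 208 CPM in controls and 41.2, 140 and 414 CPM in treated hearts, and was not called. The part of these marker shifts in the differences of Dnaja1, Dnajb4 and their partners was not tested.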

How the data were processed

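Total RNA (Trizol) was turned into QuantSeq forward libraries, per the labels' protocols. The submitters' processing notes name GRCm39 and bcl2fastq. For the aligner, the counter and its use of strand, the record is: not given in the sources used here. Whole-number counts for each gene are what the authors deposited, beside a scaled signal, CPM per the file headers, whose totals differ between libraries (789185 to 1060280). That signal served only for alternative library sizes. Libraries held 2217974 to 2637364 counts. Pairs of libraries of one group differed beyond counting noise (chi-square over its degrees of freedom 2.10 to 3.42), so each was counted as 1 sample.

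All genes entered one edgeR 4.0.16 fit (R 4.3.3): filterByExpr with minimum count 10 and minimum total 15, TMM factors of 0.857 to 1.15, glmQLFit and a two-sided glmQLFTest on group, with Benjamini-Hochberg adjustment over 8531 genes. The SE is the absolute log2 difference over the square root of F. DESeq2 1.42.0 and limma 3.58.1 gave alternatives. The fit was checked on simulated counts. Lists carry no test. Named members are those called, the 10 next by p, the 2 most abundant of each role group and 11 listed by name; named partners are those called and 9 listed by name. The members and lists were chosen with earlier results of these data known. All 45 identifiers matched the reference names, and 37 members had a RefSeq promoter.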

Additional observations from a re-analysis of the deposited data

How the results depend on the processing

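The number of DNAJ members called was 2 as reported and with RLE scaling, without the count filter, under a filter on mean CPM of 5, in a robust fit, with mitochondrial genes left out and the replicate block. It was 5 on total counts alone, 0 with DESeq2 (3 at an unadjusted p under 0.05), 1 with limma-voom and 1 with the deposited library sizes, an alternative chosen after seeing the data. Leaving out 1 library gave 0 to 2, with 4 members at an unadjusted p under 0.05 in each of these 6 fits; in the fit of all libraries 4 of 34 members and 18.1% of all genes reached it. The median log2 difference of the members was 0.29 on total counts and ran from -0.035 to 0.056 without 1 library. Partner genes called numbered 3 with DESeq2 and 1 to 5 without 1 library. Hspa8 changed sign on total counts (0.29, edgeR adjusted p = 0.0451). Over all genes, total counts called 1479 and DESeq2 335, against 520 as reported, and without control 1 the count was 301. The replicate numbers did not pair the libraries: same-numbered libraries had correlations of deviations of 0.0608, -0.0280 and -0.0143. With the numbers as a block, 560 genes and the same 2 members were called. The causes of these shifts were not tested. At this depth the count minimum of the filter corresponds to 4.23 CPM, and 11 members did not pass the filter.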

Other observations

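Ratios of counts within a library do not depend on the scaling between libraries. The pairs below were chosen after their values were seen, so the ratios are descriptions with no test. Dnajb4 per Dnaja1 was 0.940, 0.874 and 1.13 in controls against 1.55, 2.07 and 2.98 in treated hearts, so the less abundant of the pair in 2 of 3 control hearts was the more abundant in every treated heart. Per 100 counts of Hspa8, Dnaja1 had 9.75, 9.57 and 8.81 in untreated hearts against 7.82, 6.00 and 4.72 with treatment, and Dnajb4 had 9.16, 8.36 and 9.92 and then 12.1, 12.4 and 14.1. The same measure for Dnajb6 was 31.2, 27.7 and 32.1 in controls against 30.3, 30.5 and 29.7 in treated hearts, inside the control range.

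In the ER, Dnajc3 per 100 counts of Hspa5 was 7.96, 7.69 and 7.81 in controls against 12.8, 12.1 and 14.9 in treated hearts. Dnajc10 per 100 counts of Hspa5 was 2.10, 2.41 and 2.66 in controls against 4.16, 4.34 and 4.83 in treated hearts. For both, each treated heart lay above the control range. That follows from the levels, since Dnajc3 and Dnajc10 lay above their control ranges and Hspa5 below its own in every treated heart.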
